A study of Mus musculus with 4 samples.

Results

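CD8 T cells of mouse back skin were taken from single-cell RNA libraries, chosen by their receptor and co-receptor transcripts. A barcode counted as a cell from 500 genes and 1000 gene UMIs upward (unique molecular identifiers, each standing for 1 captured RNA molecule), with no more than 10% of UMIs from mitochondrial genes. Among them, a CD8 T cell had at least 2 UMIs of Cd8a and Cd8b1 together and at least 1 UMI of Cd3e, Cd3d and Cd3g together. It also had at most 4 UMIs of Il17a and Il17f, at most 1 of Il13 and Il5, and at most 2 of the complement genes C1qa, C1qb and C1qc. This rule gave 225 cells, called members here, of 28607 kept cells: 113 of 7212 in the treated WT library, 92 of 6682 in the treated Cd226-/- library, 20 of 3513 in the naive CD45+ library and 0 of 11200 in the naive CD45- library.

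The skin came from BALB/c mice, either WT or lacking Cd226, which encodes the receptor DNAM-1. Treated mice received DMBA, a chemical mutagen, at 25 µg once, and then TPA, a phorbol ester that promotes skin tumours, at 5 µg weekly for 3 doses from 1 week later, and skin was taken 3 weeks after treatment. Cells of 3 treated mice per genotype were pooled, and sorted CD45+ (hematopoietic) and CD45- cells were mixed 1:1 into 1 library. The naive mice had neither agent, and each of the 2 naive libraries, 1 of CD45+ and 1 of CD45- cells, was a 1:1 pool of WT and Cd226-/- cells, so it holds both genotypes. All cells were released with collagenase, stained with antibodies to CD45 and DNAM-1 that carry sequence tags, and counted with 10x Genomics 3′ v3.1 chemistry.

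CD8 T cells recognise peptides on class I major histocompatibility molecules through an αβ T cell receptor and kill target cells with perforin, which opens the target membrane, and with granzymes, which are proteases delivered through it. Many CD8 T cells of skin are resident: they carry Cd69, the integrin Itgae (CD103) and the chemokine receptor Cxcr6, and lack the exit receptor S1pr1 and its transcriptional activator Klf2. DNAM-1 is an activating receptor of T cells and natural killer (NK) cells for ligands on stressed cells. Inhibitory receptors such as Pdcd1 (PD-1), Ctla4, Lag3 and Havcr2 (TIM-3) appear upon activation and persist in exhausted cells.

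Each group was 1 library of pooled mice, so genotype, treatment and library cannot be told apart and no test between groups was possible. Intervals throughout are 95% intervals for counting error only. Levels were summed over members as UMIs per 1000000 of the members' own UMIs (CPM), which totalled 910007 for WT, 693773 for Cd226-/- and 202099 for naive cells. Median depth per member was 6153, 4294.5 and 5627 UMIs. Because depth differed, the share of members with a UMI of a gene is given as the share expected after thinning each member to 1000 UMIs, beside the unthinned count of cells. No barcode was shared between libraries among members. Trimmed-mean scaling would lower every log2 ratio of Cd226-/- over WT by 0.11, raise those of WT over naive by 0.14 and raise those of Cd226-/- over naive by 0.03.

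The receptor genes fit the label. A UMI of an αβ receptor constant gene (Trac, Trbc1 or Trbc2), which the rule did not use, was found in 111 of 113 WT, 92 of 92 Cd226-/- and 20 of 20 naive members. Trdc, the constant gene of the γδ receptor, was found in 6, 7 and 2 members, and in none without an αβ constant UMI. Cd4 was seen in 11, 5 and 1. Variable genes were too sparse to describe clones, with a Trav UMI in 18, 5 and 6 members and a Trbv UMI in 9, 10 and 2. Gzma, granzyme A, which is named as a marker of these cells, was present in most WT members only: 76 of 113, against 29 of 92 Cd226-/- and 1 of 20 naive members.

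The values at the limits of the rule were as follows. The limit of 2 Cd8a and Cd8b1 UMIs was just met by 12, 12 and 6 members (WT, Cd226-/- and naive), and 8, 17 and 6 cells with 1 UMI lay just outside. The limit on C1q genes left out 5, 6 and 1 cells, and 9, 11 and 9 members held 1 or 2 such UMIs. The Il17 limit left out 3, 9 and 0 cells and the Il13 and Il5 limit 5, 14 and 0. Members with no Cd8b1 UMI, the β chain of the co-receptor, numbered 8, 13 and 1.

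Transcripts of other lineages were present in part of the members. A summed list of 7 fibroblast markers held 4272, 4026 and 4 UMIs in WT, Cd226-/- and naive members, with 1847 and 1256 of them in the highest single WT and Cd226-/- members. Dendritic cell markers held 7130, 6765 and 3099 UMIs and monocyte and macrophage markers 2059, 1464 and 200, whereas the B cell gene Ms4a1 was at 0 in every library. Melanocyte transcripts were found in 47 WT, 3 Cd226-/- and 0 naive members, and Dct, an enzyme of melanin synthesis, was also seen in 17.2% of fibroblast-like cells of the WT library and 1.5% of those of the Cd226-/- library. A stricter set of members was therefore described beside all members: it left out those with more than 20 UMIs of class II major histocompatibility genes, more than 5 UMIs of other-lineage markers, any Cd4 UMI, or a call by the doublet finder Scrublet, and was chosen after the data were seen. It held 68 WT, 69 Cd226-/- and 15 naive cells with median depths of 3912.5, 3667 and 5300 UMIs. The 45, 23 and 5 members left out had median depths of 11766, 16469 and 26924 UMIs. The part of other-lineage RNA in the levels below was not tested beyond giving values in both sets, and a value with no set named is over all members.

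**Figure D1:**
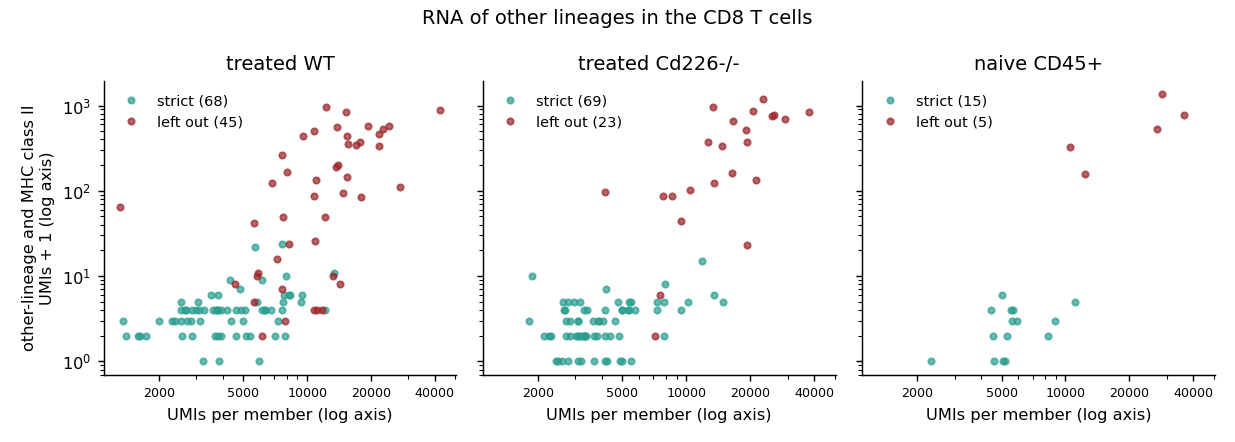
UMIs of other-lineage markers and class II genes plus 1 of each member (vertical log axis) against its total UMIs (horizontal log axis), by library. Most members outside the stricter set lie to the upper right, though 6 WT and 2 Cd226-/- ones have at most 5 such UMIs, and the median depths of those left out were 11766 (WT), 16469 (Cd226-/-) and 26924 UMIs (naive).

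The DNAM-1 antibody tag followed the genotype labels. Its median was 62 counts per member in WT (interquartile range 44 to 98) and 2 in Cd226-/-, and in fibroblast-like cells of the same libraries it was 16 and 2. In the naive pool of both genotypes the median was 10.5 in members and 10 in fibroblast-like cells. WT members thus carried more tag than WT γδ T cells (median 20) and CD4 T cells (45.5) and less than NK-type cells (103). The Cd226 transcript was still counted in Cd226-/- members, with 23 UMIs in 14 cells against 59 UMIs in 41 WT cells (ratio 0.511, interval 0.301–0.841). Sequencing of 3′ ends can read a transcript whose coding part is disrupted elsewhere, so this value checks nothing.

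**Figure D2:**
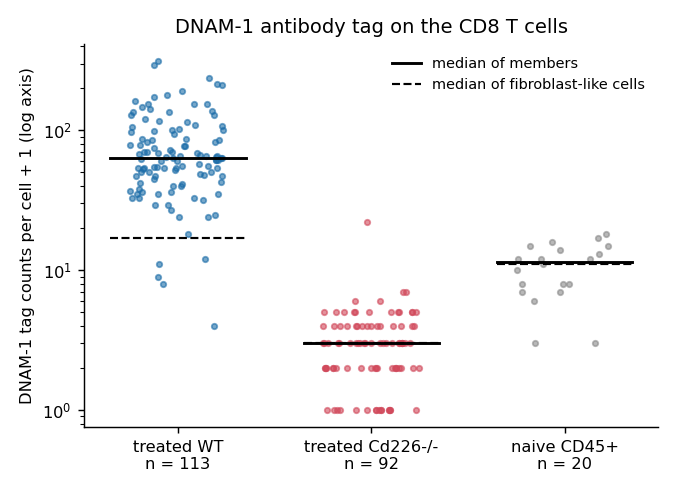
DNAM-1 antibody tag counts plus 1 for each member on a log axis, by library, with the members' median as a solid bar and the median of fibroblast-like cells of that library as a dashed bar. WT members centre on 62 counts and Cd226-/- members on 2.

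Members were a smaller share of CD3 cells in the treated Cd226-/- library than in the treated WT library. CD3 cells were counted as those with a CD3 UMI and at most 2 C1q UMIs. Members made up 16.5% of them in WT (113 of 685, interval 13.8–19.5), 10.1% in Cd226-/- (92 of 914, 8.19–12.2) and 6.13% in naive CD45+ (20 of 326, 3.79–9.32). With the class II, other-lineage and Scrublet limits of the stricter set, but not its Cd4 limit, applied to members and CD3 cells alike, the shares were 21.7% (75 of 346), 12.6% (71 of 565) and 5.62% (15 of 267). Of cells with a UMI of Ptprc, the gene of CD45, members were 5.83%, 2.73% and 0.647%. In the naive CD45- library 0 of 303 CD3 cells were members, with an interval that reaches 1.21%. The intervals of WT and Cd226-/- did not overlap on these denominators. Of all kept cells, which include the CD45- cells mixed in, members were 1.57% (1.29–1.88) and 1.38% (1.11–1.69), and these intervals overlap. The Il17 limit and the Il13 and Il5 limit were applied to members but not to CD3 cells. The Il17 limit left out 3 WT and 9 Cd226-/- cells, and the Il13 and Il5 limit 5 and 14. γδ T cells numbered 68 in WT and 176 in Cd226-/-. The part of these limits and of γδ T cells in the lower share was not tested. Each share comes from 1 pool of mice.

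Several granzyme genes and perforin were lower in Cd226-/- members, first among them Gzma. Gzma, granzyme A, a tryptase encoded at chr13:113093825-113100981 on the minus strand (GRCm38, GENCODE), had 3179, 896 and 26 UMIs in WT, Cd226-/- and naive members, or 3493, 1291 and 129 CPM. It was expected in 54.8% of WT members after thinning (interval 45.2–64.2), in 22.0% of Cd226-/- members (13.8–31.6) and in 3.13% of naive members (0.127–24.9). Its level in Cd226-/- members was 0.370 of that in WT (0.343–0.398), or 2.70-fold lower, and in the stricter set 0.302 (0.275–0.331). The difference lay both in how many cells had it and in how much each had: positive WT members held a median of 19.5 UMIs and positive Cd226-/- members 10, and the richest single cells held 163 and 137. In fibroblast-like cells, which should lack the gene and were deeper (median 9739 and 12287.5 UMIs), a Gzma UMI was seen in 0.528% and 0.171%, against 67.3% and 31.5% of unthinned members. Gzmk, granzyme K, which lies 70626 bases from Gzma on the same strand, was also lower, with 52 UMIs in 24 WT cells, 16 in 10 Cd226-/- cells and none in naive members. Its ratio was 0.404 (0.215–0.718) over all members and 0.226 (0.0911–0.494) in the stricter set.

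**Figure D3:**
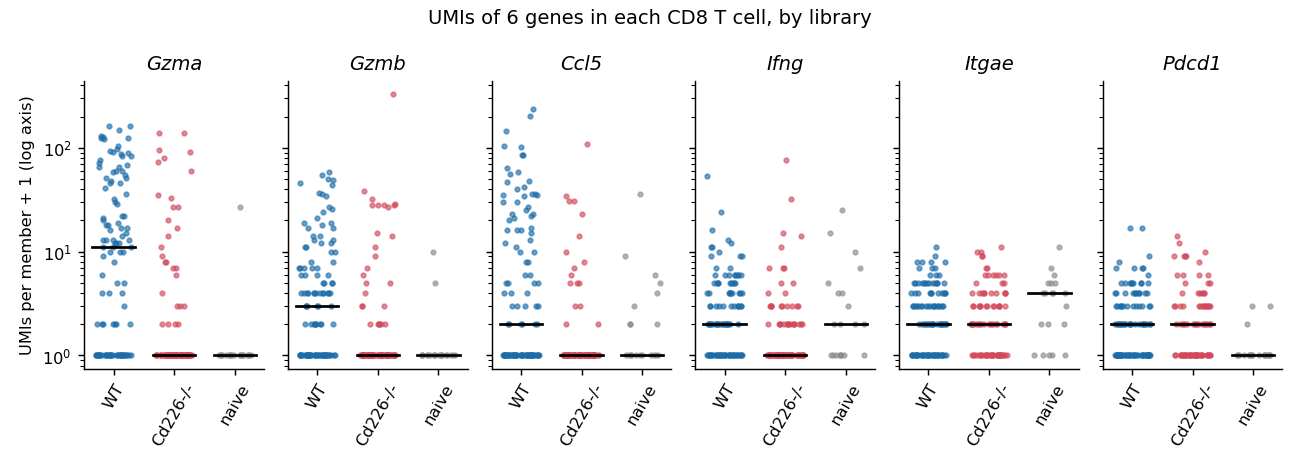
UMIs plus 1 in every member for 6 genes (Gzma, Gzmb, Ccl5, Ifng, Itgae and Pdcd1) on log axes, by library, with the median as a bar. For Gzma the WT median is 10 UMIs and the Cd226-/- and naive medians are 0, while Itgae and Pdcd1 cover similar ranges in both treated libraries.

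Gzmb, granzyme B, the aspartate-directed protease that activates caspases, showed a lower share of cells but not a lower summed level. It was seen in 71 WT, 27 Cd226-/- and 2 naive members, expected after thinning in 35.7% (26.6–45.0), 16.8% (9.42–25.5) and 7.05%. The summed levels had a ratio of 1.01 (0.908–1.12), with 328 of the 637 Cd226-/- UMIs (51.5%) in 1 cell. Without the richest cell of each library the log2 ratio was −0.93, and in the stricter set the ratio was 0.633 (0.541–0.738). Prf1, perforin, had 66 UMIs in 40 WT cells and 24 in 18 Cd226-/- cells, a ratio of 0.477 (0.286–0.771) over all members and 0.436 (0.245–0.749) in the stricter set. Its 17 naive UMIs lay in 3 cells, 13 of them in 1. Gzmc, a granzyme of strongly activated cells, was held by 17 and 13 treated cells, with 212 of 390 WT UMIs (54.4%) and 100 of 172 Cd226-/- UMIs (58.1%) in 1 cell each.

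Other genes of the killing machinery went either way. Nkg7, a granule membrane protein of cytotoxic lymphocytes, was seen in 112 of 113 WT, 85 of 92 Cd226-/- and 17 of 20 naive members, with a ratio of 0.887 over all and 1.09 in the stricter set. Ctsw, the protease cathepsin W, was higher in Cd226-/- members by 1.21-fold (1.03–1.42), and by 1.73-fold (1.41–2.12) in the stricter set. Serpinb9, the inhibitor that protects a killer cell from its own granzyme B, was lower at 0.512 (0.402–0.646) and 0.495 in the stricter set. Of the 21 genes listed as cytotoxic, 17 reached 20 UMIs over both libraries. Of these 1 was higher in Cd226-/- past 1.5-fold (the lysosomal protein Lamp1, 1.62, and 1.25 in the stricter set) and 5 were lower (Gzma, Gzmk, Prf1, Gzmc and Serpinb9), with a median log2 ratio of −0.13. Over all 7080 genes measured, 17% were higher and 8.52% lower by that rule, with a median of 0.09. In the stricter set 16 genes could be compared, 3 higher and 5 lower, against 18.0% and 9.11% of 4017 genes. These shares over all genes are also the background for the counts of Cd226-/- over WT in the other lists below.

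**Figure D4:**
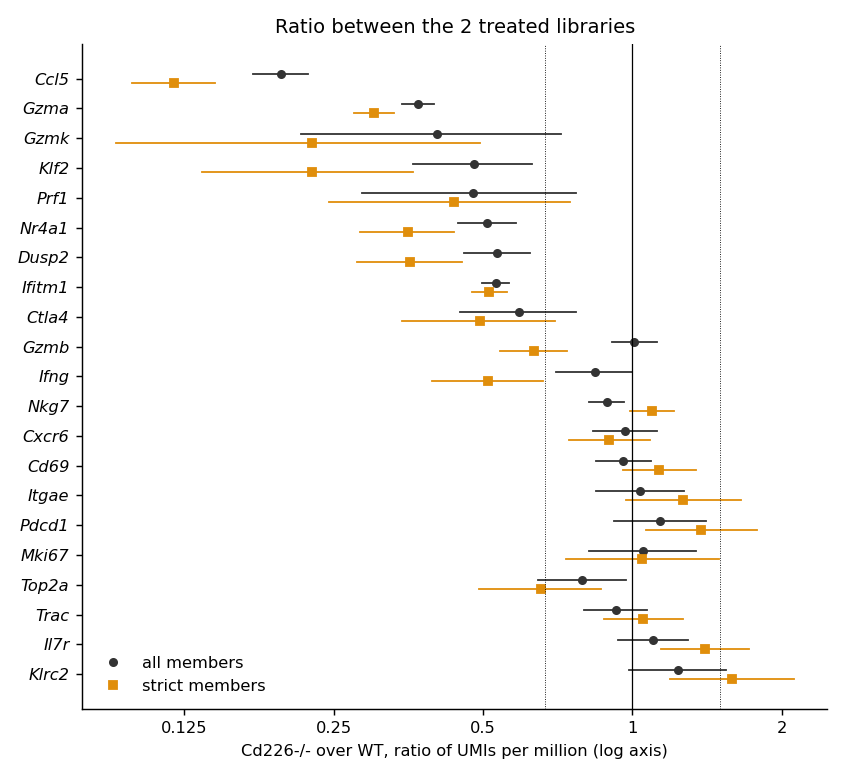
Ratio of the summed level in Cd226-/- members over WT members for 21 genes on a log axis, for all members and for the stricter set, with 95% counting intervals and dotted lines at 1.5-fold. Ccl5, Gzma, Gzmk and Klf2 lie to the left of the lower line in both sets, and the points of Itgae, Cd69 and Cxcr6 lie between the lines in both.

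Promoter sequences of the granzyme, perforin and interferon genes are shown because these 5 genes encode the killing proteins and the main cytokine of CD8 T cells, and each was seen in a lower share of Cd226-/- than of WT members. They are the 250 bases before the RefSeq start site on GRCm38.p6, 5′ to 3′ on the gene's strand: Gzma at chr13:113100982-113101231 (minus), Gzmk at chr13:113180966-113181215 (minus), Gzmb at chr14:56262335-56262584 (minus), Prf1 at chr10:61297586-61297835 (plus) and Ifng at chr10:118440796-118441045 (plus). Capitals mark matches on either strand to 4 motifs of factors known in T cells: Runx (TGTGGT), T-box (AGGTGT), AP-1 (TGANTCA) and the Nr4a element (AAAGGTCA).
Gzma: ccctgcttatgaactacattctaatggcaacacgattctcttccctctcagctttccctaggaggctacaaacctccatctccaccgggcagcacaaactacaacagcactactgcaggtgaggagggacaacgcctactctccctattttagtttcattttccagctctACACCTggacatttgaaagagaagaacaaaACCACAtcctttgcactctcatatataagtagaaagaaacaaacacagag
Gzmk: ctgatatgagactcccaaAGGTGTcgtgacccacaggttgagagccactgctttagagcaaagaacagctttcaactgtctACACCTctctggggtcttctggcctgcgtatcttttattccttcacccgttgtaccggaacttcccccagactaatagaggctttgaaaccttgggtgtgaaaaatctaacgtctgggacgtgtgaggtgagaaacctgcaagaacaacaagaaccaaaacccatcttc
Gzmb: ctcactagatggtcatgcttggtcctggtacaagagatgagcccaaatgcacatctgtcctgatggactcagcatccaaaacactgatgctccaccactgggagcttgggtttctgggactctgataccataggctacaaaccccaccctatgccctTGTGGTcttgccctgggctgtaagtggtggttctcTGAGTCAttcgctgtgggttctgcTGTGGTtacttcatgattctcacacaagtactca
Prf1: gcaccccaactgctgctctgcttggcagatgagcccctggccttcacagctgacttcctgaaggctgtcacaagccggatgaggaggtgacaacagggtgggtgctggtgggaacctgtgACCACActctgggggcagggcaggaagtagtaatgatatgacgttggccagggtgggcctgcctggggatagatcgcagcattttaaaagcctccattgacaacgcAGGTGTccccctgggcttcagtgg
Ifng: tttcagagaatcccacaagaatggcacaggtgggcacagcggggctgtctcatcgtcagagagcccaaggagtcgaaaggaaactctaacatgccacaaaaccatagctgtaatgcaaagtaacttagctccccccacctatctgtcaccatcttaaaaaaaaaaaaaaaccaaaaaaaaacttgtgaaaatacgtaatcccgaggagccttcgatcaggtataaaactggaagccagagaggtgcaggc
Gzma held 1 Runx and 1 T-box match, Gzmk 2 T-box matches, Gzmb 2 Runx and 1 AP-1 match, Prf1 1 Runx and 1 T-box match and Ifng none in this window. Among 32851 RefSeq promoters of that length, 14.0% held the Runx letters, 11.8% the T-box letters, 6.75% the AP-1 letters and 1.34% the Nr4a element. These are matches of letters and say nothing of binding in these cells. For Gzmk and Gzmb the first bases after the RefSeq start were not found in the GENCODE transcripts, so another annotation places their start elsewhere.

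Among the cytokines and chemokines, Ccl5 stood lowest in Cd226-/- members. Ccl5, the chemokine RANTES of memory and effector T cells (chr11:83525778-83530518, minus strand), had 1879 UMIs in 60 WT members, 281 in 17 Cd226-/- members and 60 in 9 naive members. After thinning it was expected in 38.0% (29.1–47.7), 10.7% (5.34–19.1) and 18.7% (5.73–43.7). Its level was 5.10-fold lower in Cd226-/- than in WT members (ratio 0.196, 0.172–0.222), and 8.37-fold lower in the stricter set. Ifng, the gene of interferon-γ, was seen in 74, 37 and 12 members and expected after thinning in 27.7% (19.5–36.6), 14.9% (8.58–24.2) and 26.0% (8.66–49.1). Its summed level had a ratio of 0.839 (0.702–1.00) over all members, of which 1 Cd226-/- cell gave 76 of 211 UMIs, and 0.512 (0.395–0.661) in the stricter set. Thinned Ifng shares were thus near each other in WT and naive members and lowest in Cd226-/- members. In fibroblast-like cells a UMI of Gzmb, Gzmk, Prf1, Ifng, Itgae, Cd69, Cxcr6 or Pdcd1 was seen in at most 0.445%, and a Ccl5 UMI in 0.735% and 0.479%.

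The remaining cytokines gave mixed values. Tnf was seen in 40 WT and 33 Cd226-/- members with a ratio of 1.34 (0.983–1.84), an interval that includes 1. The chemokines Ccl3 and Ccl4, which draw other leukocytes, had ratios of 0.931 and 0.967 over all members but 0.475 and 0.580 in the stricter set, while Xcl1, which draws cross-presenting dendritic cells, had 1.02 and 2.72. The Xcl1 value of the stricter set rests largely on 1 cell. It held 54 of the 85 Xcl1 UMIs of Cd226-/- members (63.5%), and the stricter set kept 83 of the 85. Il2, the T cell growth factor, was sparse, with 7, 7 and 12 UMIs in 6, 7 and 8 WT, Cd226-/- and naive members, and was expected after thinning in 0.709%, 1.59% and 9.71%. Areg, an epidermal growth factor ligand, had 90 of its 130 WT UMIs in 1 cell. Of 12 cytokine genes measured, of 16 listed, 2 were higher (Ccl1 and Ccl9) and 2 lower (Ccl5 and Areg) past 1.5-fold, with a median log2 ratio of −0.01. The stricter set had 4 higher and 4 lower of 10, with a median of 0.20.

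**Figure D5:**
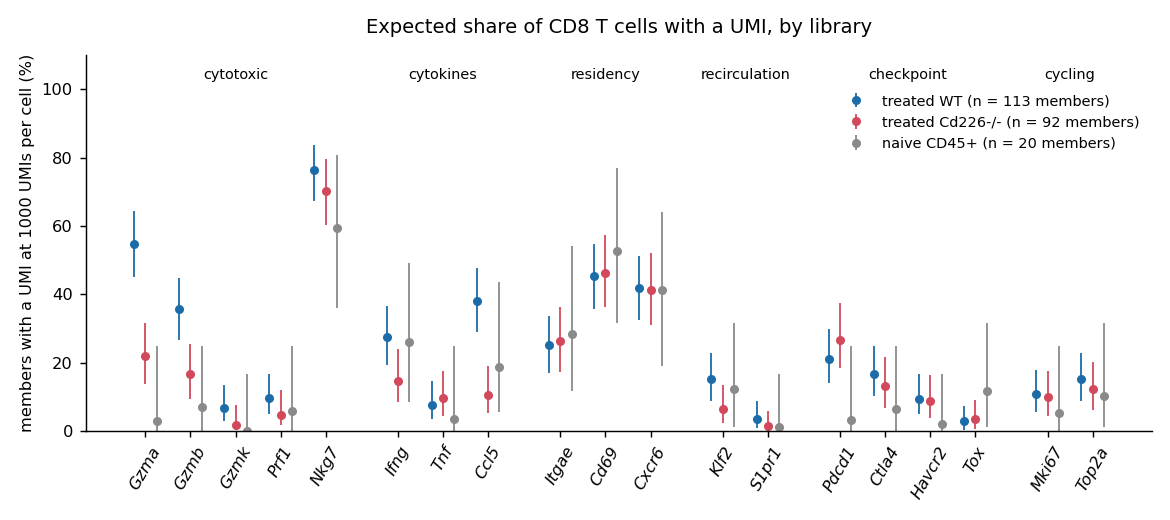
Share of members expected to hold a UMI at 1000 UMIs per cell, in percent, for 19 genes in 6 functional groups and 3 libraries, with 95% Clopper-Pearson intervals at the rounded count. Gzma reads 54.8% in WT, 22.0% in Cd226-/- and 3.13% in naive members, while Cxcr6 reads 41.8%, 41.3% and 41.3%.

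The defining residency genes Itgae, Cd69 and Cxcr6 had close levels in all 3 libraries over all members. Itgae, the αE integrin that binds E-cadherin of keratinocytes, was expected after thinning in 25.1% of WT (17.1–33.8), 26.5% of Cd226-/- (17.5–36.3) and 28.6% of naive members (11.9–54.3), with levels of 242, 251 and 262 CPM. Cd69, which holds cells in tissue by removing S1pr1 from the surface, was expected in 45.4%, 46.3% and 52.6%. Cxcr6, the receptor for Cxcl16 of epidermis, was expected in 41.8%, 41.3% and 41.3%, at 480, 464 and 435 CPM. The ratios of Cd226-/- over WT were 1.04 (0.845–1.27), 0.959 (0.845–1.09) and 0.967 (0.834–1.12), so each interval includes 1 and keeps within 1.5-fold. Stricter members gave 1.26 (0.970–1.65), 1.13 and 0.898 (0.744–1.08). Over naive members of that set, Cd69 was at 0.699 (0.554–0.886) in WT and 0.792 (0.630–1.00) in Cd226-/- members. The intervals of Itgae and Cxcr6 over naive included 1 there in both treated libraries. Ccr10, the receptor for the keratinocyte chemokine Ccl27, differed, with 20 UMIs in 12 WT members and 8 in 7 naive members. It had 0 in 92 Cd226-/- members. With these set to 3 counts over the group it was 5.08-fold lower than in WT, with a lower interval bound of 3.76-fold. Of 21 residency genes 17 were measured, with 1 higher (Qpct, 1.52) and 1 lower (Ccr10) past 1.5-fold and a median log2 ratio of −0.24. In the stricter set 15 were measured, with 3 higher, none lower and a median of 0.13.

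Genes of recirculating and central memory T cells had mostly lower values in Cd226-/- members, most clearly Klf2. Klf2, the factor that drives S1pr1, was expected in 15.3% of WT members (9.01–23.0), 6.54% of Cd226-/- members (2.43–13.7) and 12.4% of naive members, a ratio of 0.479 (0.361–0.629), and 0.226 (0.136–0.361) in the stricter set. Klf2 is also a gene of other skin cells, with a UMI in 51.1% and 37.9% of fibroblast-like cells of the treated libraries, and the part of free RNA in these counts was not tested. S1pr1 was rare, with 33 UMIs in 19 WT members and 11 in 6 Cd226-/- members (0.437, 0.199–0.887), and 16 against 10 in the stricter set (0.654, 0.266–1.53). Itgb1, the β1 integrin, had ratios of 0.576 and 0.373 in the 2 sets. Of 17 genes 15 were measured, with 1 higher and 6 lower (the lower ones were Klf2, S1pr1, S1pr4, Ccr7, Itga4 and Itgb1) and a median log2 ratio of −0.34, and in the stricter set with 1 higher and 4 lower of 12 and a median of −0.12. Ccr7, the lymph node homing receptor that dendritic cells also carry, had a ratio of 0.542 over all members and 2.97 in the stricter set, so its direction depended on members with other-lineage RNA.

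Exhaustion genes did not differ as 1 group. Pdcd1 (PD-1) was seen in 65 of 113 WT, 53 of 92 Cd226-/- and 3 of 20 naive members, expected after thinning in 21.3% (14.1–29.9), 26.8% (18.4–37.4) and 3.25%. Its ratio of Cd226-/- over WT was 1.14 (0.918–1.40) over all members and 1.37 (1.06–1.78) in the stricter set. Ctla4, the inhibitory receptor that competes with Cd28, was lower in Cd226-/- members at 0.591 (0.450–0.771), and 0.493 (0.344–0.699) in the stricter set. Havcr2 (TIM-3) was seen in 48 and 31 treated members (1.06, 0.748–1.5, and 1.02 in the stricter set) and Lag3 in 17 and 10 (1.00, 0.448–2.19, and 1.13). Tigit, which shares ligands with DNAM-1, had 1 UMI in WT and 0 in the other libraries, so it was not measurable at this depth. Tox, a factor of exhausted and developing T cells, was rare in both treated libraries, with 22 and 20 UMIs (1.19, 0.617–2.29, and 1.13 in the stricter set).

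The Nr4a genes, transcription factors induced by receptor signals and kept on in exhausted cells, were lower in Cd226-/- members. Nr4a1 was expected in 48.9% of WT (39.2–58.3), 28.4% of Cd226-/- (19.4–38.6) and 43.9% of naive members, with ratios of Cd226-/- over WT of 0.510 (0.446–0.582) over all members and 0.353 (0.283–0.438) in the stricter set. Nr4a2 and Nr4a3 had ratios of 0.575 and 0.520 over all members and 0.800 and 0.461 in the stricter set. Fibroblast-like cells held Nr4a1 in 43.9% and 38.4%, so the gene is not one of T cells alone. Of 27 exhaustion genes 22 were measured, with 2 higher (Btla and Cd200r1) and 6 lower (Ctla4, Entpd1, Ikzf2 and the 3 Nr4a genes) and a median log2 ratio of 0.00. Stricter members had 2 higher and 4 lower of 18, with a median of −0.13.

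The share of proliferating cells was close in the treated libraries. Cells with UMIs of at least 5 of 15 cell cycle genes were 22 of 113 WT members (19.5%, 12.6–28.0), 18 of 92 Cd226-/- members (19.6%, 12–29.1) and 3 of 20 naive members (15%, 3.21–37.9). The cycling cells were deep, with median UMIs of 7845.5, 7569 and 8897. Mki67, the proliferation antigen Ki-67, was expected after thinning in 10.9%, 10.1% and 5.52%, with a ratio of 1.05 (0.818–1.34); fibroblast-like cells held it in 1.13% and 1.81%. Some genes of the G2 and M phases had lower ratios, such as Top2a at 0.791 (0.644–0.969), Ube2c at 0.572 and Ccnb1 at 0.317. In the stricter set these were 0.654, 0.459 and 0.327. Other genes of these phases went the other way there. Nusap1 had 29 UMIs in WT and 44 in Cd226-/- cells, Ccna2 18 and 26, and Cenpa 56 and 70. Rrm2, the ribonucleotide reductase subunit of S phase, had 1.63 over all members and 1.96 in the stricter set. Of 33 genes 31 were measured, with 3 higher (Mcm4, Mcm7 and Rrm2) and 2 lower (Ube2c and Ccnb1), a median log2 ratio of −0.09. The stricter set had 6 higher and 3 lower of 28, with a median of 0.10.

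Genes of type 1 differentiation and of early activation were in part lower in Cd226-/- members. Il18r1, the receptor chain for interleukin 18, was seen in 61 WT and 33 Cd226-/- members (0.449, 0.319–0.623, and 0.625, 0.412–0.939, in the stricter set). Dusp2, a phosphatase induced by receptor signals, was expected in 37.2% (28.3–46.8) and 21.6% (13.8–31.6), with ratios of 0.534 and 0.357. The immediate early gene Egr1 had 0.661 (0.642 in the stricter set), while Fosb and Atf3, also immediate early genes, had 1.56 and 1.95 (2.00 and 1.72), so the activation list did not go one way. Of 22 activation genes measured, 3 were higher (Fosb, Atf3 and Myc) and 3 lower (Dusp2, Egr1 and Egr2), with a median log2 ratio of 0.04, against 2 higher and 4 lower of 20 and −0.22 in the stricter set. Of 15 type 1 genes, 1 was higher (Zeb2) and 2 lower (Il18r1 and Cxcr3), with a median of −0.40, against 0 higher and 4 lower of 13 and −0.22 in the stricter set. Cxcr3 had 32 UMIs in WT and 31 in Cd226-/- cells of the stricter set, so it was not lower there.

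Interferon-responsive genes went both ways. Ifitm1, an antiviral membrane protein, was expected in 70.8% of WT (61.5–79.0) and 46.0% of Cd226-/- members (35.2–56.4), with ratios of 0.530 (0.498–0.564) and 0.514 (0.474–0.558); fibroblast-like cells held it in 24.1% and 27.2%. The guanylate binding proteins Gbp2 and Gbp4, both induced by interferon-γ, each had a ratio of 0.492, and the factor Irf1 had 0.614. In the stricter set these were 0.698 (0.248–1.86), 0.673 (0.351–1.26) and 0.589 (0.229–1.42), on few UMIs. Bst2, tetherin, was higher at 2.16, and at 3.55 in the stricter set. Of 31 genes 5 were higher and 8 lower, with a median log2 ratio of −0.23, and in the stricter set 1 was higher and 7 lower of 26, with a median of 0.07. Of all genes, 17% were higher and 8.52% lower, and in the stricter set 18.0% and 9.11%. The share higher over all members was near that of all genes, and in the stricter set it was below it. The share lower was above that of all genes in both sets.

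Receptor and co-receptor lists held few differences over all members. Of 20 T cell receptor and signalling genes none was higher past 1.5-fold and 2 were lower (Txk and Ubash3a), with a median log2 ratio of −0.29. Of 14 costimulatory genes 0 were higher and 3 lower (Cd226, its ligand gene Pvr and Slamf7). Among 10 genes of the NK receptor list, which also holds signalling adaptors of these receptors, only Klrb1b passed 1.5-fold, at 2.74. Klrc1 (NKG2A), an inhibitory receptor for Qa-1, was seen in 86 WT and 58 Cd226-/- members (0.792, 0.644–0.971), its partner Klrd1 (CD94) in 91 and 70 (0.937) and the activating Klrc2 in 70 and 57 (1.23). Their ratios in the stricter set were 0.972, 1.08 and 1.58 (1.19–2.11). Among 12 homing genes 3 were lower (Ccr10, Gpr55 and Cxcr3) and 0 higher, but Cxcr3 was not lower in the stricter set (32 UMIs in WT and 31 in Cd226-/- cells). Median log2 ratios were −0.07 for costimulation, 0.13 for NK receptors and −0.24 for homing. More genes differed in the stricter set. Of 8 genes of the NK receptor list 4 were higher and 0 lower (median 0.39). These were Klrc2, the adaptors Fcer1g and Tyrobp, and Klrb1b, with 1 UMI in WT and 24 in 5 Cd226-/- cells. Of 13 costimulatory genes 4 were higher and 3 lower (0.14). Homing had 1 higher and 2 lower of 11 (−0.13) and the receptor signalling list 0 of 19 (−0.06). Stress and metabolism lists also held few differences: of 11 heat shock genes, which also respond to tissue digestion, 1 was higher (Hspa1b) and 1 lower (Dnajb1), with a median of 0.25. Of 15 glycolysis and hypoxia genes, 1 was higher (the glucose transporter Slc2a1) and 2 lower (Slc2a3 and Vegfa), with a median of 0.01. The stricter set had 1 higher and 1 lower of 9 heat shock genes and 0 higher and 1 lower of 13 glycolysis genes.

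Genes of type 17 T cells were the list with the highest median. Of 10 genes measured 7 were higher in Cd226-/- members and 0 lower, against 17% and 8.52% of all genes, with a median log2 ratio of 0.88. In the stricter set 4 of 5 were higher, against 18.0% of all genes, with a median of 1.55. The higher genes include Il1r1, Serpinb1a (2.62), Cd163l1 (2.21), Tmem176a (2.65) and Tmem176b (1.76). These genes are also those of skin γδ T cells that make interleukin 17. Cells with more than 4 UMIs of Il17a and Il17f were removed by the rule, and 5 Cd226-/- and 4 WT members held fewer, so this list is in part cut by how the members were chosen. Summed γδ markers held 110 UMIs in WT and 163 in Cd226-/- members, and the part of such cells in these values was not tested. Counts were low in the stricter set, where Cd226-/- members held 28 UMIs of Cd163l1, 23 of Serpinb1a and 15 of Tmem176b.

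Among genes outside the lists, those with the highest ratios of Cd226-/- over WT were Cxcl14, Fabp4, Ptx3, Saa3 and Il33. These are genes of stromal cells, seen in 20.8% to 71.6% of fibroblast-like cells, and in the stricter set they held few UMIs, for example 0 against 3 for Ptx3 and 4 against 3 for Saa3. Fabp4 kept more, at 6 against 91. The lowest, beside Ccl5 and Ccr10, were Fxyd2, Zmynd15 and Rom1. Fxyd2 had 63 WT UMIs in 5 cells, 38 of them in 1, and Zmynd15 76 in 4 cells, so neither is a value of many cells, while Rom1 had 33 UMIs in 18 WT members and 3 in 3 Cd226-/- members.

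The treated libraries were then set beside the naive CD45+ members. Both comparisons use the same 20 naive cells, and the 15 naive cells of the stricter set held 87508 of the 202099 naive UMIs, so the stricter values are given as well. Past 1.5-fold, 23.2% of 5781 genes were higher and 18.3% lower in WT than in naive members, and 26.1% and 13.8% of 5420 in Cd226-/- members, with median log2 ratios of 0.04 and 0.10.

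Cytotoxic genes were higher in both treated libraries. Of 17 and 16 genes measured, 10 were higher and 0 lower in WT, and 9 were higher and 1 lower in Cd226-/- members, with median log2 ratios of 0.73 and 0.65. Gzma was 27.2-fold higher in WT (18.5–41.6) and 10.0-fold in Cd226-/- members (6.81–15.5). Naive members of the stricter set had 0 Gzma UMIs. With these set to 3 counts it was 181-fold and 54.7-fold higher, with lower interval bounds of 147-fold and 44.3-fold. Gzmb was 14.2-fold and 14.3-fold higher over all members, and 9.16-fold and 5.80-fold in the stricter set. Gzmc was at 0 in naive members. With these set to 3 counts it was 28.9-fold higher in WT (lower interval bound 23.4-fold) and 16.7-fold in Cd226-/- members. Serpinb9 and the related inhibitor Serpinb6b were seen in 67 and 80 WT and 38 and 53 Cd226-/- members, but in 1 and 2 naive members. Prf1 had lower ratios of 0.862 and 0.411, on 17 naive UMIs of which 13 were in 1 cell.

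Some genes of the NK receptor list were higher after treatment, 4 of 9 in WT and 6 of 9 in Cd226-/- members with 0 lower, and so were some inhibitory receptors. The exhaustion list as a whole had 7 higher and 3 lower of 19 in WT and 5 and 5 of 18 in Cd226-/- members. Klrc1 was at 0 in all 20 naive members. With these set to 3 counts it was 18.9-fold higher in WT (lower interval bound 15.2-fold) and 15-fold in Cd226-/- members. Klrd1 was 9.13-fold (4.58–21.3) and 8.56-fold higher. Pdcd1 was 8.62-fold (3.63–26.8) and 9.79-fold (4.11–30.5) higher. Ctla4 had a ratio of 0.860 for WT over all naive members, but in the stricter set naive members had 0 UMIs. With these set to 3 counts Ctla4 was 9.34-fold and 4.61-fold higher there, with lower interval bounds of 7.46-fold and 3.61-fold. Bhlhe40, a factor of activated and resident T cells, was 6.64-fold and 5.64-fold higher, and 11.3-fold and 11.5-fold in the stricter set.

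Fewer named genes were lower after treatment. Tox had ratios of 0.168 (0.0922–0.304) in WT and 0.201 in Cd226-/- members over naive, with 29 naive UMIs in 13 of 20 cells, and 0.269 and 0.306 in the stricter set. Cd40lg, the ligand by which T cells license dendritic cells, had 0.159 and 0.183, and Slamf1 0.201 and 0.236. Heat shock genes were mostly lower, 7 of 11 in WT and 6 of 11 in Cd226-/-, against 1 higher in each, while glycolysis genes were higher, 7 of 15 and 7 of 13, with 0 lower. Residency genes went both ways, with 3 higher and 5 lower of 17 in WT and 4 and 4 of 16 in Cd226-/- members and medians of −0.10 and −0.05. Within the stricter set Rgs2, a regulator of G protein signals, was at 0.446 and 0.431 of naive and the aryl hydrocarbon receptor Ahr at 0.475 and 0.457, whereas Hilpda, a lipid droplet protein, was 6.47-fold and 6.35-fold higher. Ikzf2, a factor known from regulatory and unconventional T cells, had a ratio of 0.277 for WT over all naive members but 1.89 (0.660–7.40) in the stricter set, so its direction rested on the 5 naive members left out there.

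Some genes lower in Cd226-/- than in WT members were in the stricter set also lower than in naive members, and others lay between. There Ifng had ratios over naive of 0.859 in WT and 0.440 (0.314–0.621) in Cd226-/- members, but over all members they were 1.06 (0.817–1.40) and 0.891 (0.676–1.19). Of the 59 naive Ifng UMIs of the stricter set, 24 lay in the richest cell and 14 in the next. The stricter Ifng ratios thus rest largely on few naive cells. Ccl5 over all members was 6.95-fold (5.38–9.15) higher than naive in WT and 1.36-fold (1.03–1.83) in Cd226-/- members, and in the stricter set 12.2-fold (8.10–19.4) and 1.46-fold (0.929–2.39), an interval that includes 1. Nr4a1 in that set was at 1.23 (0.955–1.61) times naive in WT and 0.435 (0.322–0.591) in Cd226-/- members, and Dusp2 at 1.02 and 0.365. Over all members these ratios were 1.62 and 0.828 for Nr4a1 and 1.56 and 0.833 for Dusp2, and the intervals for Cd226-/- over naive then include 1. Gzma was above naive in both treated libraries.

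In both treated libraries Gzma and Gzmb were often found in the same cells. A Gzmb UMI was present in 60 of 76 WT members with Gzma (78.9%) and in 11 of 37 without (29.7%), and in Cd226-/- in 22 of 29 (75.9%) and 5 of 63 (7.94%). The 1 naive cell with Gzma held no Gzmb, and the 2 with Gzmb held no Gzma. Deep cells show more genes, so such shares carry depth as well. Among Gzma-positive members 49 of 76 WT and 22 of 29 Cd226-/- cells also held Itgae, so granzyme A was not restricted to cells without the residency integrin. Of cells with Mki67, 22 of 30 in WT and 5 of 25 in Cd226-/- held Gzmb, and of cells with Pdcd1 39 of 65 and 13 of 53. WT members above the median DNAM-1 tag (55 cells) and those at or below it (58) had thinned shares of 54.0% and 55.6% for Gzma, 30.6% and 40.5% for Gzmb, 5.93% and 13.6% for Prf1, 23.7% and 31.5% for Ifng and 29.3% and 21.2% for Itgae, at median depths of 7636 and 5255 UMIs. Their summed Gzma levels were 2751 and 4461 CPM and their Gzmb levels 604 and 1311 CPM.

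Other lymphocytes of the treated libraries are set beside these values, with no test of the difference; some had lower levels in Cd226-/- as well. NK-type cells, 13 in WT and 24 in Cd226-/-, had Gzma in 5 and 8 cells, with a ratio of Cd226-/- over WT of 1.71 (1.49–1.98), and Ccl5 at 1.14 (0.969–1.33), where CD8 T cells had 0.370 and 0.196. CD4 T cells, 66 and 71, had Gzma in 9 and 7 cells, expected after thinning in 5.31% and 5.22%. They had a ratio of 0.372 (0.260–0.524) for Ifng, with 21 and 17 positive cells, but 2.64 (2.02–3.48) for Gzma and 2.97 (1.85–4.91) for Ccl5. γδ T cells, 68 and 176, were lower in Cd226-/- for Ccl5 at 0.118 (0.0829–0.166) and Ifng at 0.170 (0.0793–0.353), as CD8 T cells were for Ccl5. Their Gzma ratio of 0.0514 rests on 1 WT and 3 Cd226-/- cells. Gzmb was lower in Cd226-/- CD4 T cells (0.429, 0.320–0.572) and γδ T cells (0.540, 0.397–0.743), and Prf1 in γδ T cells (0.591, 0.461–0.763). The thinned shares of γδ T cells with Gzmb were close, at 6.83% and 6.81%. In NK-type cells both intervals included 1, at 0.922 (0.662–1.29) for Gzmb and 1.04 (0.681–1.61) for Prf1.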

How the data were processed

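The 4 libraries (treated WT, treated Cd226-/-, naive CD45+ and naive CD45-) were analysed from the raw UMI counts per gene and barcode, with antibody tag counts, that the authors deposited; they were made with Cell Ranger 3.1.0 on the mm10 genome, per the submitters' processing notes. They held 8527, 7991, 5913 and 11875 barcodes and 72606822, 71245703, 42043869 and 81406730 gene UMIs. The members and the 16 gene lists were chosen with earlier results of these data known, and the stricter set and the setting without class II positive members after the data were seen. UMIs were summed over members per library and scaled to 1000000 (CPM). Levels carry exact Poisson intervals, ratios exact conditional binomial intervals and shares Clopper-Pearson intervals (95%); all cover counting error alone. No test was run and no p-value is given, since every group was a single library.

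Genes with at least 20 UMIs over both libraries were compared and called past a fold of 1.5. A library at 0 was set to 3 counts. Thinned shares are the exact expectation at 1000 UMIs per cell, with the interval at the rounded count, and no member was too shallow. Named genes were 21 fixed ones, up to 3 per list and direction by the interval bound nearest to equality, and the 5 highest and lowest outside the lists that passed both scalings, a leave-out of the richest cell and a comparison with other cell types; in addition, some list members and genes in Other observations were named after their values were seen. Fibroblast-like cells had at least 10 collagen UMIs. Doublets were left in. Scrublet, run in scanpy 1.11.5 at an expected rate of 0.06, called 2.36% and 2.41% of treated WT and Cd226-/- cells but 0.256% of naive CD45+ cells, where it did not work, so its calls served only as an alternative and as a limit of the stricter set. Among members it called 2, 3 and 0 cells. Promoters came from RefSeq (GRCm38.p6). The software was Python 3.11.15 with matplotlib 3.10.9, pandas 2.3.3, scipy 1.17.1, anndata 0.12.19 and numpy 2.4.6, and the calculations were tested on simulated data. Alternatives were trimmed-mean scaling, equal weight per cell, leaving out the richest cell, other limits on members, other gene filters and a fold of 2. Values of some single genes are not reported here.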

Additional observations from a re-analysis of the deposited data

How the results depend on the processing

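No paired analysis was possible because each group was 1 library, and for the same reason no replicate could be left out in turn. The number of WT members was 113, and 87 without class II positive members or 68 in the stricter set. The number of Cd226-/- members was 92, and 74 with Cd8a and Cd8b1 each required, 73 at no more than 5% mitochondrial UMIs or 69 in the stricter set. Genes higher in Cd226-/- past 1.5-fold numbered 1206, against 777 without other-lineage or Cd4-positive members, 724 in the stricter set, 1877 at a minimum of 10 UMIs, 461 at 50 UMIs and 454 at a fold of 2. Genes lower numbered 603, against 366 in the stricter set, 1017 at 10 UMIs, 222 at 50 UMIs and 213 at a fold of 2. Fewer cells, another minimum or a larger fold change by construction how many genes can pass. The median log2 ratio of the cytotoxic list was −0.13, and 0.016 without class II positive members, −0.36 without the richest cell of each gene and 0.056 with cells weighted equally. The cause of these differences was not tested. Among 104 values of this kind under an alternative, 87 stayed within their spread and 17 moved; among 1049 values of single genes and lists, 920 stayed and 129 moved. Depth limits rare genes most: Tigit and Lag3 cannot be ordered between libraries, and 20 naive cells bound a share no better than their intervals show.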

Other observations

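In the stricter set, genes outside the description above also differed between the treated libraries; they were picked from these values, with no test. Lower in Cd226-/- cells were Rasgrp2, which activates the integrin switch Rap1 (56 UMIs in 23 WT cells and 14 in 9 Cd226-/- cells, ratio 0.262), Fam46a (46 and 9 UMIs, 0.205) and Snx10, an endosomal sorting nexin (19 UMIs in 15 cells and 2 in 1). Higher were Glo1, the glyoxalase that detoxifies methylglyoxal (15 UMIs in 13 cells and 57 in 38, 3.98-fold, 2.22–7.57), Tcf19 (2 UMIs in 2 cells and 22 in 11) and Fcer1g, a signalling adaptor of NK receptors (32 and 101 UMIs). Ccl1, a chemokine for CCR8-bearing cells, had 1 UMI in WT and 43 in Cd226-/- cells, and Klrb1b 1 and 24, each in 5 Cd226-/- cells, so these are values of few cells. Trdc had 16 and 65 UMIs in 3 and 6 cells that also held αβ receptor transcripts. A Glo1 UMI was also seen in 51.9% and 82.0% of fibroblast-like cells of the same libraries, and the part of free RNA in its difference was not tested.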
